A study of Homo sapiens with 3 samples.

Results

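Mature microRNAs (miRNAs) of the library labelled Mock were set against those of the untreated library CC, 2 of the 3 small RNA libraries of the series. All 1149 miRNAs of the deposited table were taken, whatever their level. Both libraries came from clones of CAL-27, an established line derived from a human tongue squamous carcinoma. CC clones received no radiation, and Mock clones came, by the design text, from cells exposed once to 2 Gy of X-rays. The RR library, whose levels are given beside the others, came from radioresistant clones that were irradiated daily with 2 Gy for 2 cycles of 5 days and rested for 2 weeks after each cycle. Whether a library holds 1 clone or several is not stated. The treatment tags leave the identity of the irradiated libraries in doubt: the tag on Mock reads irradiated with no dose, and a tag naming 2 Gy stands on RR. Every direction below therefore refers to the library labelled Mock. With 1 library a group there is no replicate check and no p-value.

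A miRNA is cut as one arm, 5p or 3p, of a hairpin precursor and is loaded into an Argonaute protein, where bases 2 to 8, the seed, pair with target messages and lower their translation and stability. miRNAs with the same seed form families with overlapping targets. In squamous epithelium miR-205 and the miR-200 family are known for holding cells in an epithelial state, let-7 for repressing RAS and HMGA2, and miR-21 for its abundance in carcinomas.

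Sequences of 10 miRNAs that the comparison turns on are shown here as DNA letters, 5′ to 3′, with the seed in capitals. The first 6 were higher in Mock and the last 4 lower. miR-146a-5p and miR-146b-5p share a seed, as do miR-103a-3p and miR-107.
miR-21-5p: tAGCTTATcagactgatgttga
miR-146a-5p: tGAGAACTgaattccatgggtt
miR-146b-5p: tGAGAACTgaattccataggctg
miR-206: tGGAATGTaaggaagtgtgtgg
miR-103a-3p: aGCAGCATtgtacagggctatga
miR-107: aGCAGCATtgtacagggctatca
miR-1248: aCCTTCTTgtataagcactgtgctaaa
miR-320b: aAAAGCTGggttgagagggcaa
miR-210-5p: aGCCCCTGcccaccgcacactg
miR-193b-3p: aACTGGCCctcaaagtcccgct

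Levels are in rpm, reads per 1000000 reads of the library total, which was 10769990 reads in CC and 10632785 in Mock (RR 10473400). The listed miRNAs took 16.3% of that total in CC, 20.5% in RR and 23.2% in Mock. Intervals in parentheses are exact 95% intervals from the recovered reads. They cover counting error only, compare 2 libraries and not the conditions, and treat PCR copies as independent reads. A level of 3 reads, taken as the floor, is 0.279 rpm in CC and 0.282 in Mock.

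The Mock library held more miRNA reads for its total than CC, and 1 miRNA made up nearly as much of that surplus as all others together. The summed level was 162561 rpm in CC against 231627 in Mock, 1.42-fold higher, and 205078 rpm in RR. The surplus of 69066 rpm was the balance of 637 miRNAs with higher levels, which added 87596 rpm, and 408 with lower levels. miR-21-5p alone added 32454 rpm, or 47.0% of the balance. let-7f-5p added 10361 rpm and let-7a-5p 6791 rpm (9.83%), whereas miR-205-5p, with the largest loss, fell by 11770 rpm. miR-7-5p, which represses the EGF receptor, was at 4300 rpm in CC and 7892 in Mock (RR 4243). Without miR-21-5p the sums were 158085 and 194697 rpm, 1.23-fold apart. Fewer cells of a type and less RNA per cell cannot be told apart in such bulk libraries.

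Of the 208 miRNAs whose level averaged 10 rpm or more across CC, Mock and RR, 25 (12.0%) were higher in Mock by 2-fold or more and 8 (3.85%) were lower, on the scale of log2(rpm + 1). All 33 counting intervals excluded equality, but so did those of 178 of the 208, so the interval by itself separates few miRNAs. The median log2 ratio was 0.28, and the middle of the distribution ran from -0.25 to 0.73 (25th to 75th percentile). The balance of higher and lower rests on the scaling. Median-ratio scaling gave 10 higher (4.81%) and 18 lower (8.65%), scaling that left out the 10 most abundant gave 10 and 19, and taking each level as a share of all miRNA reads gave 7 (3.37%) and 31 (14.9%). These scalings moved the median of all tested miRNAs by -0.29, -0.34 and -0.50, so a ratio is best read against 0.28. Of the 25 higher miRNAs, 7 stayed past 2-fold under all 3 scalings: miR-21-5p, miR-103a-3p, miR-146a-5p, miR-206, miR-320c, miR-486-5p and miR-3182. All 8 lower ones did so too, which was fixed in advance because each scaling moves ratios downward. With median-ratio scaling the lower ones also included, among others, let-7b-3p, miR-193b-5p, miR-205-5p, miR-210-3p and miR-365a-5p. miR-206 and miR-320c, under 10 rpm in both CC and RR, passed the level filter only through their level in Mock. So did miR-146b-5p, whose levels in CC and RR average under 10 rpm. miR-103b, under 10 rpm in both Mock and RR, passed the filter only through its level in CC. The levels of the 33 in each library are plotted by miRNA.

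**Figure D1:**
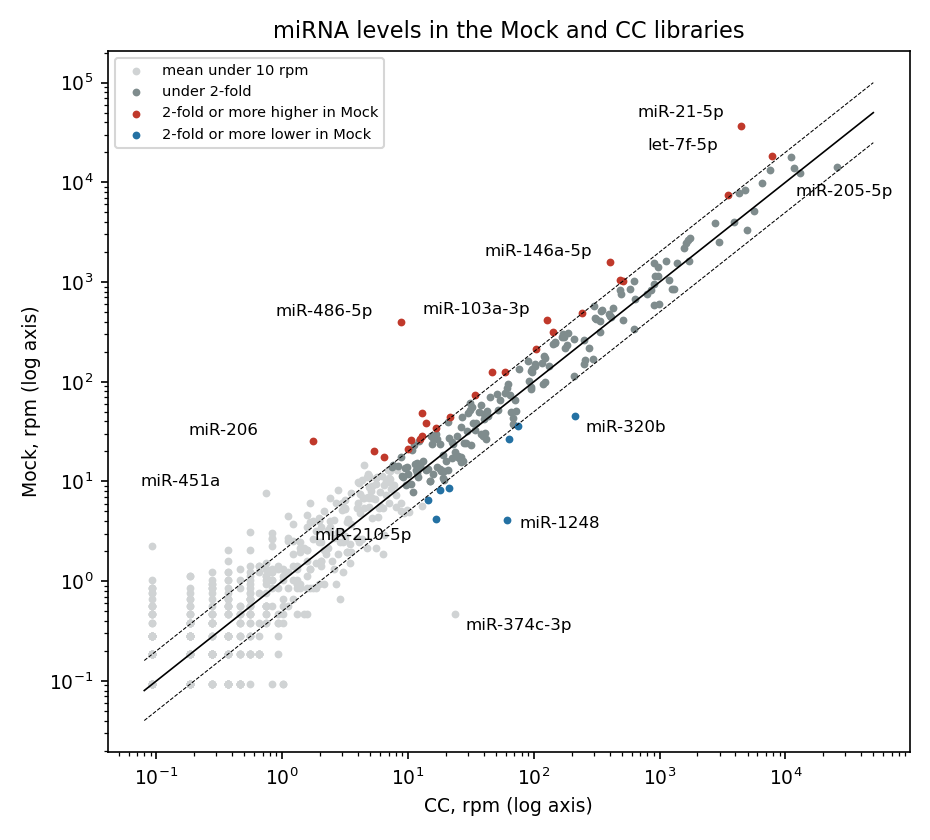
Each point is a miRNA read in both libraries, with its level in CC on the x axis and in Mock on the y axis, both in rpm on log axes. The solid line marks equal levels and the dashed lines 2-fold. The 25 red points are 2-fold or more higher in Mock, with miR-21-5p as the most abundant and miR-486-5p as the furthest from the line, and the 8 blue points are lower, led by miR-1248 and miR-320b.

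**Figure D2:**
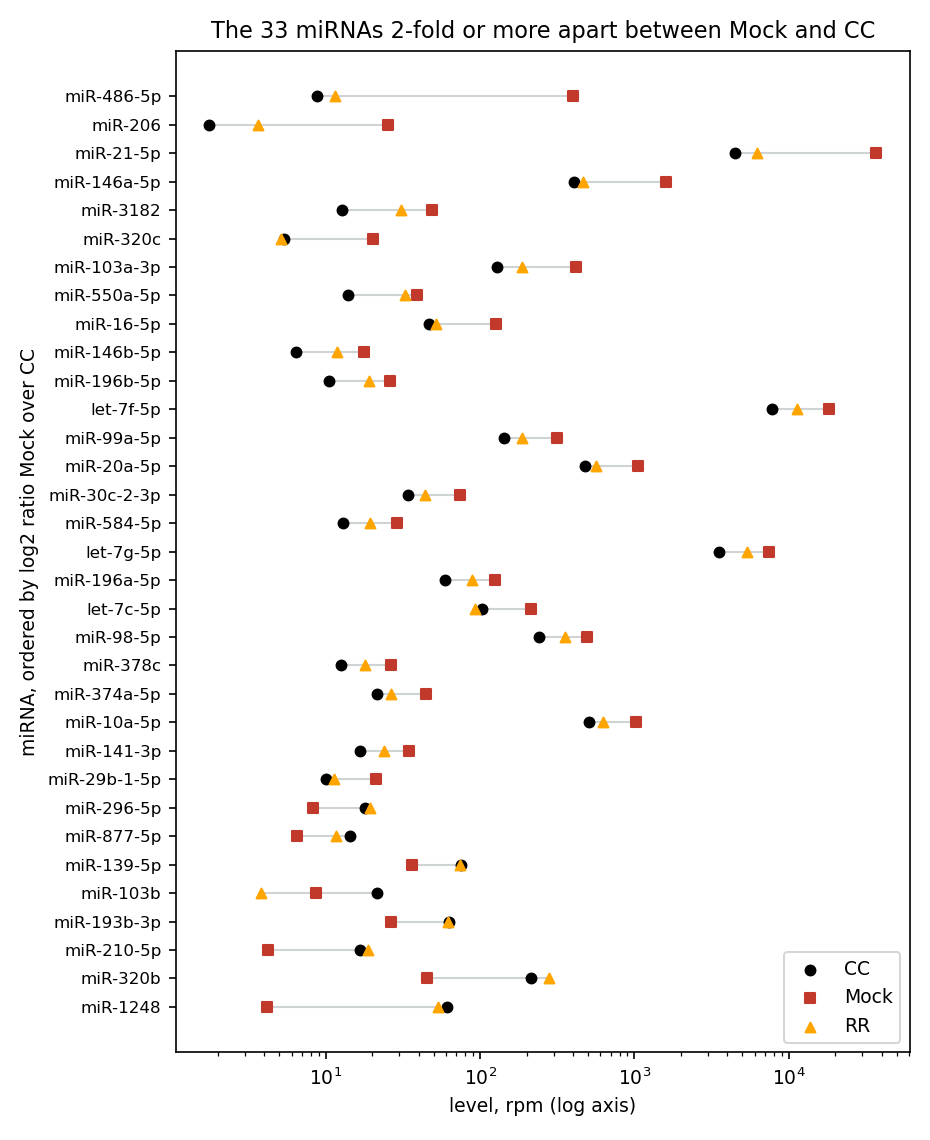
Levels of the 33 miRNAs in CC (black circles), Mock (red squares) and RR (orange triangles), in rpm on a log axis, with 1 library a group and no error bars. The miRNAs are ordered by the log2 ratio of Mock over CC. Mock has the highest of the 3 levels for each of the 25 upper miRNAs, and the lowest for 7 of the 8 lower ones, miR-103b being the exception.

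Among miRNAs induced by NF-kB and inflammation, 3 of 7 tested members were higher in Mock by 2-fold or more and 0 were lower, beside 12.0% and 3.85% of all tested miRNAs, and the median log2 ratio was 0.94 beside 0.28. miR-21-5p had 4475 rpm in CC, 6209 in RR and 36929 in Mock. Mock thus held 8.25 times the CC level (8.17 to 8.33), and RR lay near CC. miR-21-5p maps to chromosome 17, 59841273 to 59841294 (GRCh38.p14), in a hairpin that overlaps an exon of VMP1. miR-146a-5p, a brake on TRAF6 and IRAK1, had 403 rpm in CC, 463 in RR and 1591 in Mock. It lies on chromosome 5, 160485372 to 160485393, in an exon of the non-coding gene MIR3142HG. Its seed partner miR-146b-5p, from a separate locus on chromosome 10, was far scarcer, at 6.41, 11.7 and 17.7 rpm, and 2.76-fold higher in Mock than in CC (2.08 to 3.69). Relative to all miRNA reads miR-146b-5p came under 2-fold, to a log2 ratio of 0.87. It passed the level filter only through its level in Mock, so its place among the 3 is not independent of that level. Both members of the seed had their highest level in Mock.

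The other tested members of that list were nearer to the rest. miR-155-5p, induced in activated leukocytes and in many carcinomas, had 487 rpm in CC and 842 in Mock (RR 537), 1.73-fold (1.67 to 1.79). miR-221-3p and miR-222-3p, which share a seed and repress the cell cycle inhibitor p27, were 1.74-fold and 1.93-fold higher. miR-132-3p went the other way, from 18.2 rpm in CC to 12.7 in Mock, while miR-212-3p of the same locus had 0 reads in CC and 1 read each in Mock and RR. The list's sum was 10507 rpm in CC, 13369 in RR and 48351 in Mock, and miR-21-5p was the larger part of it in Mock.

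Of the p53-induced miRNAs, 2 of 7 listed members passed the filter. miR-192-5p had 76.3 rpm in CC and 136 in Mock (RR 129), and miR-194-5p had 65.0, 73.5 and 93.2 rpm. Neither reached 2-fold, and their median of 0.50 is above 0.28. miR-107, on the same list but below the filter, had 4.46 rpm in CC and 14.5 in Mock, a ratio of 3.25 (2.34 to 4.59). miR-34a-5p, the best known p53 target, was close to absent, with 7 reads in Mock, 6 in RR and 1 in CC. miR-34c-5p, below the level filter, had 4.09 rpm in CC, 5.63 in RR and 9.69 in Mock, a Mock over CC ratio of 2.37 (1.65 to 3.46).

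miR-486-5p, abundant in red cells and muscle, had the largest ratio of all tested miRNAs. Its level was 8.73 rpm in CC, 11.5 in RR and 398 in Mock, 45.6-fold (37.1 to 56.5). Its other arm, miR-486-3p, had 0 reads in CC and 7 in Mock (RR 2). The remaining erythroid markers were also highest in Mock, at far lower levels. miR-451a, made without Dicer and most abundant in red cells, had 8 reads in CC and 82 in Mock (RR 8), a ratio of 10.4 (5.03 to 24.9). miR-144-3p, from the same locus as miR-451a, had 0, 26 and 0 reads, at least 8.78-fold higher against the floor of 3 reads in CC, with a counting interval that starts at 6.64, and miR-144-5p had 0, 2 and 0 reads. The 4 erythroid markers summed to 9.47 rpm in CC and 408 in Mock (RR 12.2). Leukocyte markers, 3 of 4 listed, summed to 0.0929, 1.98 and 0.0955 rpm: miR-142-3p had 1, 8 and 0 reads, miR-142-5p 0, 5 and 0, and miR-150-5p 0, 8 and 1. The part of other cells' RNA in these values was not tested.

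Muscle markers did not move together. miR-206, known from skeletal muscle, had 1.76 rpm in CC, 3.63 in RR and 25.5 in Mock, 14.4-fold (9.07 to 24.4). miR-1-3p, with the same seed, differed from it at 4 of 22 positions and was more abundant, with 338 rpm in CC and 319 in Mock (RR 404). miR-133a-3p, a defining muscle miRNA, was near 1 rpm in CC (1.02), Mock (0.658) and RR (0.859). miR-133b, which shares a locus with miR-206, had 0 reads in CC and 5 in Mock (RR 2). The sum of the 4 was 341, 345 and 409 rpm.

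Markers of further cell types gave sums closer between the libraries. Endothelial miR-126 summed to 55.2 rpm in CC and 66.9 in Mock (RR 81.9) over both arms. The 3 listed mesenchymal markers summed to 6.41, 5.64 and 6.49 rpm, through miR-143-3p. Of the others, miR-199a-5p had 2 reads in CC and 12 in Mock (RR 0), a ratio of 6.08 (1.35 to 55.9), and miR-145-5p 5 reads in CC and 1 in Mock. Hepatic miR-122-5p was at 4.46, 5.45 and 2.96 rpm. The neural list reached 570, 786 and 700 rpm through miR-128-3p and miR-9-5p, and miR-9-5p had 170 rpm in CC and 303 in Mock (RR 224).

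The level filter averages the 3 libraries and does not mark a cell type: miR-1-3p, miR-128-3p, miR-9-5p and miR-126-3p of the lists above passed it too. All 8 squamous and epithelial markers passed it. In rpm as deposited, 1 of these 8 was 2-fold or more higher and 0 lower, a share near the 12.0% and 3.85% of all tested miRNAs. Their median log2 ratio was 0.39, close to that of all tested miRNAs. miR-205-5p was the exception to the direction of the list. It had 25945 rpm in CC, 29651 in RR and 14174 in Mock, a Mock over CC ratio of 0.546 (0.543 to 0.550). It was the most abundant miRNA of CC, and in Mock it ranked behind miR-21-5p, let-7f-5p and let-7a-5p. The summed level of the list, most of it miR-205-5p in CC, was 39032 rpm in CC and 30009 in Mock (RR 45502). The miR-200 family, repressors of ZEB1 and ZEB2, had 1 of 5 members past 2-fold, miR-141-3p, with 16.6 rpm in CC and 34.4 in Mock (RR 23.9), and its log2 ratio of 1.01 came to 0.52 relative to all miRNA reads. The remaining members lay between 1.19-fold for miR-200c-3p, the most abundant, and 1.48-fold for miR-429. miR-31-5p, a miRNA of oral carcinoma, had 179 and 219 rpm, and miR-203a-3p, which marks keratinocyte differentiation, 22.8 and 23.7 rpm.

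The let-7 guide strands share the seed GAGGTAG and differ by a few bases further on, and their ratios spread over more than 2-fold. The 5 sequences shown are those with the 4 highest ratios and, last, the one with the lowest.
let-7f-5p: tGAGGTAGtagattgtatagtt
let-7g-5p: tGAGGTAGtagtttgtacagtt
let-7c-5p: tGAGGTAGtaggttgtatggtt
miR-98-5p: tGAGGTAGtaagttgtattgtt
let-7b-5p: tGAGGTAGtaggttgtgtggtt

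Of the 9 let-7 guides 4 were 2-fold or more higher and 0 lower (12.0% and 3.85% of all tested miRNAs), with a median log2 ratio of 0.81 beside 0.28. let-7f-5p had 7820 rpm in CC, 11258 in RR and 18181 in Mock, and let-7g-5p 3527, 5343 and 7443 rpm. let-7c-5p, at 103, 92.6 and 215 rpm, was the only one of the 4 with less in RR than in CC. let-7b-5p stood apart from its family with 5670 rpm in CC, 8194 in RR and 5188 in Mock, a Mock over CC ratio of 0.915 (0.905 to 0.926). It differs from let-7c-5p at 1 of 22 positions. The order of the log2 ratios ran from let-7f-5p (1.22) over let-7g-5p (1.08), let-7c-5p (1.05), miR-98-5p (1.04), let-7i-5p (0.81), let-7a-5p (0.69), let-7e-5p (0.59) and let-7d-5p (0.52) to let-7b-5p (-0.13). The lowest GC content, 31.8%, belonged to let-7f-5p and miR-98-5p and the highest, 45.5%, to let-7b-5p. All 4 came under 2-fold with each of the 3 scalings and with a GC trend removed, let-7f-5p to a log2 ratio of 0.71 relative to all miRNA reads. The family sum was 39129 rpm in CC and 67108 in Mock (RR 57456).

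Of the 10 listed let-7 passenger strands, cut from the same hairpins, 4 were tested. The others, among them those of let-7a, let-7c, let-7i and miR-98, fell below the level filter. Of the 4, 0 passed 2-fold in either direction, beside 12.0% higher and 3.85% lower of all tested miRNAs. Their median log2 ratio was -0.08. Among these 4 the order was that of their guides: let-7f-1-3p (0.88), let-7e-3p (0.39), let-7d-3p (-0.55) and let-7b-3p (-0.73). Below the filter let-7a-3p had a Mock over CC ratio of 1.55 (1.15 to 2.09). let-7i-3p, at 22 reads in CC and 15 in Mock, had 0.691 (0.333 to 1.39), whereas its guide was higher in Mock. let-7d-3p, the most abundant, had 1253 rpm in CC and 854 in Mock (RR 1473), and let-7b-3p 251, 151 and 248 rpm. let-7f-1-3p was higher instead, with 15.2, 28.8 and 15.5 rpm.

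Of the miRNAs that lie among the HOX genes, 3 of 5 tested were 2-fold or more higher in Mock and 0 lower, against 12.0% and 3.85% of all tested miRNAs, with a median of 1.01 beside 0.28. miR-10a-5p, next to HOXB4, had 508 rpm in CC, 627 in RR and 1023 in Mock. miR-196a-5p, from the HOXB and HOXC loci, had 59.1, 88.5 and 124 rpm, and miR-196b-5p, from the HOXA locus, 10.5, 19.0 and 26.2 rpm. The miR-196 sequences differ at 1 of 22 positions and repress HOX messages through a shared seed, AGGTAGT. miR-10b-5p reached 1.53-fold, and miR-615-3p, within HOXC5, was lower in Mock, with 256 rpm in CC and 166 in Mock (RR 373). The log2 ratios of miR-10a-5p, miR-196a-5p and miR-196b-5p came under 1 with each of the 3 scalings, to 0.50, 0.56 and 0.77 relative to all miRNA reads.

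In the miR-99/100 family, which represses mTOR, members of 1 seed also parted.
miR-99a-5p: aACCCGTAgatccgatcttgtg
miR-100-5p: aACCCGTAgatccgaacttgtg
miR-99b-5p: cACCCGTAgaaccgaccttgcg
The capitals are again the seed. miR-99a-5p had 142 rpm in CC, 187 in RR and 317 in Mock, 2.23-fold (2.10 to 2.37), and a log2 ratio of 0.64 relative to all miRNA reads took it under 2-fold. miR-100-5p, which differs from it at 1 of 22 positions, was 1.53-fold higher, from 6483 to 9892 rpm. miR-99b-5p, with a GC content of 63.6% against 50% for the others, was slightly lower in Mock, with 2947 and 2529 rpm. The miR-125 family, encoded in the same clusters, had a median of 0.06 over 2 members.

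In the miR-15/16 and miR-17 seed families 1 tested member each, of 2 and of 4, was past 2-fold, higher in Mock, beside 12.0% of all tested miRNAs. miR-16-5p, which represses cyclins D1 and E1, had 46.8 rpm in CC, 51.7 in RR and 127 in Mock, 2.71-fold (2.44 to 3.00), and miR-15b-5p of the same cluster and seed had 120, 114 and 183 rpm. miR-20a-5p, of the oncogenic MIR17HG cluster, had 481, 560 and 1049 rpm. Relative to all miRNA reads their log2 ratios came under 1, to 0.91 for miR-16-5p and 0.61 for miR-20a-5p. The 7 tested miRNAs of that cluster on chromosome 13 had a median of 0.58 and ran from -0.10 for miR-18a-3p to 1.12 for miR-20a-5p. Some of them, miR-92a-3p and miR-19b-3p, are also encoded in a cluster on the X chromosome. miR-92a-3p, the most abundant, had 12959 rpm in CC and 12318 in Mock.

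miR-103a-3p, from introns of PANK3 on chromosome 5 and PANK2 on chromosome 20, had 128 rpm in CC, 187 in RR and 416 in Mock, 3.24-fold (3.05 to 3.44). miR-107, an intronic product of PANK1 that differs from it at 1 of 23 positions, was just under the level filter with 4.96 rpm in RR, and its Mock over CC ratio of 3.25 was nearly the same. Of 33 miRNAs past 2-fold, 20 have a near-identical miRNA in the table, and how reads matching several were assigned is not given, so these levels are uncertain.

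Further miRNAs past 2-fold were under 100 rpm in each library and higher in Mock. miR-3182 had 12.8 rpm in CC and 48.6 in Mock (RR 30.9), and miR-30c-2-3p, the passenger of a miR-30 hairpin, 34.3 and 74.2 rpm (RR 44.0). miR-584-5p, miR-378c and miR-29b-1-5p had 28.8, 26.6 and 21.2 rpm in Mock, 2.21-fold, 2.12-fold and 2.11-fold higher than in CC. Of these, miR-3182 alone stayed past 2-fold under all 3 scalings.

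miRNAs lower in Mock were fewer, and 1 of them overlaps another class of RNA. miR-1248 lies on chromosome 3, 186786675 to 186786701, inside the small nucleolar RNA SNORA81 in EIF4A2. It had 61.3 rpm in CC, 53.1 in RR and 4.14 in Mock, 14.8-fold lower (10.9 to 20.6). Other miRNAs that overlap snoRNAs were scarce: miR-664a-3p had 19.5, 19.5 and 12.6 rpm in CC, RR and Mock, and miR-1291 had 18 reads in CC, 7 in RR and 0 in Mock. miR-3651 had 10, 1 and 4 reads in that order. Not all were lower in Mock. miR-664a-5p had 19 reads in CC, 31 in RR and 43 in Mock, a Mock over CC ratio of 2.29 (1.31 to 4.17), and miR-664b-3p had 16, 15 and 23 reads. The share of snoRNA fragments among such reads was not tested.

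The miR-320 family held both a higher and a lower member, the widest range among the families with 3 or more tested members. Its scarcer members share all but their 3′ ends.
miR-320b: aAAAGCTGggttgagagggcaa
miR-320c: aAAAGCTGggttgagagggt
miR-320d: aAAAGCTGggttgagagga
They share the seed AAAGCTG in capitals. miR-320b and miR-320c have their first 19 bases in common, and each shares its first 18 with miR-320d. miR-320b had 213 rpm in CC, 278 in RR and 45.6 in Mock, 4.68-fold lower (4.24 to 5.17). miR-320c had 5.39, 5.16 and 20.3 rpm, 3.77-fold higher, and miR-320d 9, 12 and 32 reads, 3.60-fold higher (1.68 to 8.58). miR-320a-3p, most of the family, had 1725 rpm in CC and 1627 in Mock. The longest of the 3 was thus low in Mock and the shorter ones high, and the family sum was 1945, 2569 and 1696 rpm.

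miR-210, the miRNA most strongly induced by HIF-1 in hypoxia, was lower in Mock on both arms. miR-210-3p had 68.1 rpm in CC, 133 in RR and 37.7 in Mock, a Mock over CC ratio of 0.554 (0.489 to 0.627). miR-210-5p had 16.6, 18.8 and 4.23 rpm, 3.93-fold lower (2.82 to 5.57), and came under 2-fold with a pseudocount of 10 rpm or a C trend removed. Its GC content, 72.7%, is among the highest of the tested miRNAs. The hairpin lies in MIR210HG on chromosome 11.

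The clusters of miR-193b and miR-365a and their paralogues had the lowest median among lists with 3 or more tested members, -0.77 over 4. Of the 4, 1 was 2-fold or more lower, beside 3.85% of all tested miRNAs. miR-193b-3p, which represses cyclin D1 and plasminogen activator urokinase, had 63.0 rpm in CC, 61.5 in RR and 26.4 in Mock, 2.39-fold lower (2.07 to 2.75). Its other arm, miR-193b-5p, had 19.3, 23.2 and 10.4 rpm, and miR-365a-5p from the same cluster on chromosome 16 had 27.2, 28.5 and 16.2 rpm. With a GC trend removed miR-193b-3p came under 2-fold. The 3 tested miRNAs of that cluster were thus lowest in Mock. miR-193a-5p, from another locus, was at 13.2 and 16.2 rpm.

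The remaining lower miRNAs were under 100 rpm in each library. miR-139-5p, an intronic miRNA of PDE2A, had 74.7 rpm in CC, 74.1 in RR and 36.0 in Mock. miR-296-5p had 17.9, 19.3 and 8.28 rpm. miR-877-5p, a mirtron of ABCF1 that bypasses Drosha, had 14.3, 11.6 and 6.49 rpm. All 3 came under 2-fold with a GC trend removed and with a pseudocount of 10 rpm.

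**Figure D3:**
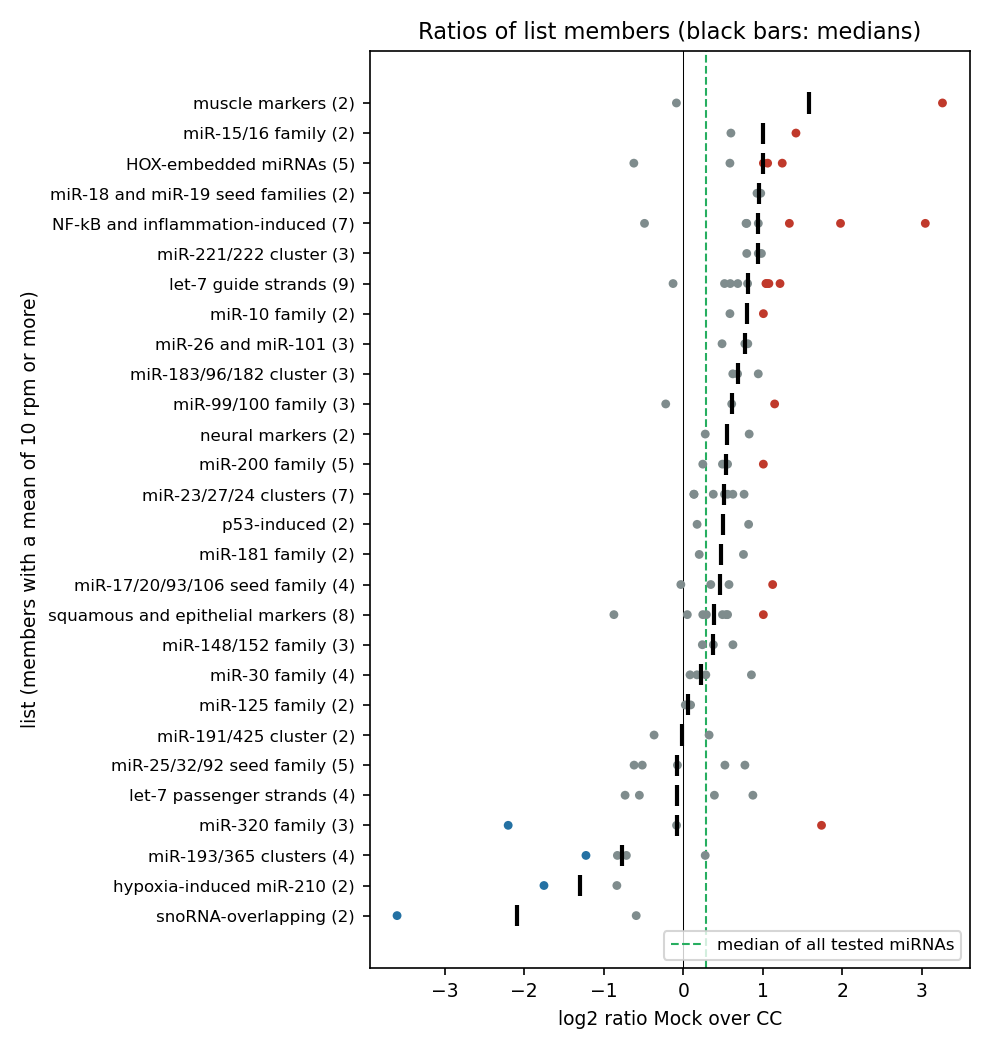
Log2 ratios of Mock over CC (x axis) for the tested members of each list (y axis, number tested in parentheses), with the list median as a black bar and the median of all tested miRNAs, 0.28, as a dashed green line. Red and blue points are 2-fold or more higher and lower. The miR-320 family spans both sides, and the lists of miR-193, miR-210 and snoRNA miRNAs lie lowest, those of miR-210 and snoRNA miRNAs with 2 tested members each.

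The families given in the deposited table showed how far related miRNAs moved alike. The table names 345 families, and 17 of them had 3 or more tested members. These families join 5p and 3p arms, which have different seeds. In 8 of these 17 the members spread over more than 1 log2 unit. Among the 8, the lowest and highest members were opposite arms in let-7, mir-15, mir-17 and mir-193. They were the same arm in mir-10, mir-25 and mir-30. The highest median was that of mir-221, 0.94, with a range of only 0.18 over 3 members. The lowest was mir-193, at -0.83, and the widest range, 3.94, that of mir-320. Of the 17 medians 11 were above that of all tested miRNAs.

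Ratios followed the base composition of the miRNA. The 33 tested miRNAs under 40% GC had a median log2 ratio of 0.77, the 64 from 40% to under 50% had 0.58, the 72 from 50% to under 60% had 0.17 and the 39 at 60% or more had -0.40. Of these groups 28, 56, 44 and 8 miRNAs lay above 0. Summed levels of the lowest and highest groups went from 34716 to 93837 rpm, 2.70-fold, and from 15007 to 11748 rpm, 0.783-fold. In the lowest group miR-21-5p (36.4% GC) alone added 32454 rpm, so that sum rests largely on 1 miRNA. Among the 25 higher miRNAs 18 were under 50% GC, and among the 8 lower ones 6 were at 50% or more. miR-486-5p (63.6% GC) and miR-1248 (37.0%) lie far from the trend on opposite sides.

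**Figure D4:**
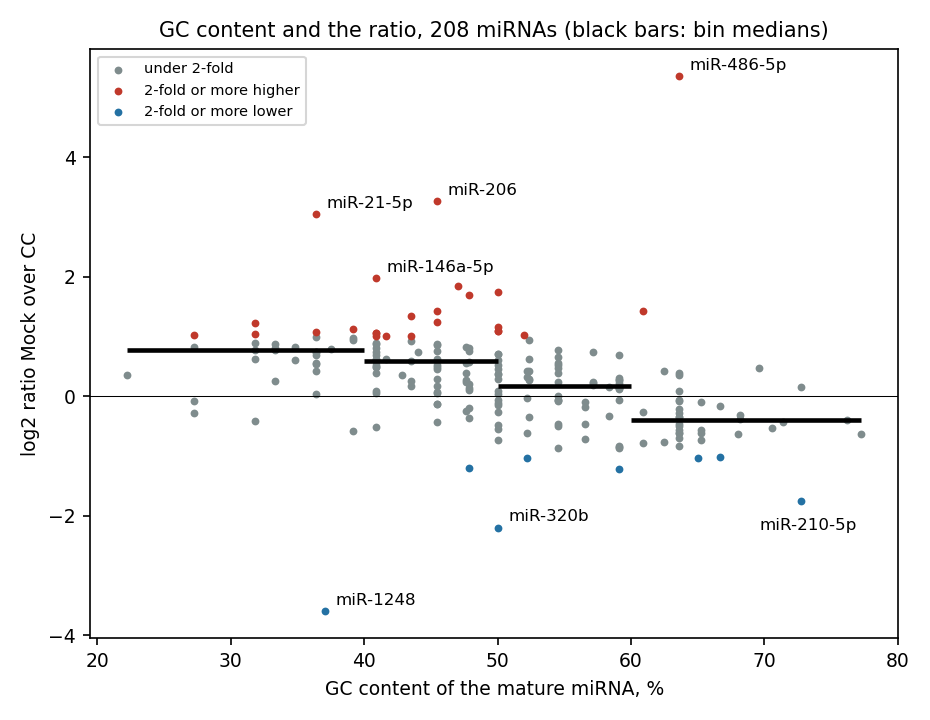
GC content of each tested miRNA in percent (x axis) and its log2 ratio of Mock over CC (y axis), with 1 point a miRNA and black bars for the medians of the 4 GC groups. The medians step down from 0.77 to -0.40, while miR-486-5p, miR-320b and miR-1248 stand off the trend.

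By single bases, C content was more closely related to the ratio than G content. Over the 208 miRNAs, which share both libraries and their depth, Spearman's rho with the log2 ratio was -0.55 for GC content, -0.51 for C content and 0.10 for G content. A and T content had values of 0.31 and 0.30. C and G content were themselves related, at -0.53, and these values are a description of 2 libraries. miRNAs with under 15% C had a median of 0.74 (50 miRNAs), and those with 35% or more had -0.47 (31 miRNAs). Across the same steps of G content the medians were 0.05, 0.34, 0.37 and 0.15. GC content of bases 1 to 11 and of the rest gave -0.42 and -0.38, so neither end alone held the relation. Length gave -0.03 and log10 of the mean level 0.11. With a linear GC trend removed 17 miRNAs were higher and 4 lower, and with a linear C trend removed, an alternative chosen after seeing the data, 12 and 6. Whether the trend arose in the cells or in making the libraries was not tested.

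The 5p and 3p arms of a hairpin are cut from the same precursor, though some mature arms are made from several hairpins. Of 102 pairs of arms with 20 or more reads of each arm over CC and Mock, 17 (16.7%) had ratios 2-fold or more apart, and in 37 the arms lay on opposite sides of equality. An arm made from several hairpins can enter more than 1 pair: 3 arms, let-7a-5p, miR-30c-5p and miR-181a-5p, did so, in 6 pairs, of which 0 were past 2-fold. The median gap was 0.43 on the log2 scale, and the ratios of the arms had a Spearman's rho of 0.27 over the 102 pairs, which share libraries and depth. The gap between arms had a rho of -0.25 with their gap in GC content.

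miR-21 had the widest gap, 2.86 log2 units. Its 3p arm had 12.4 rpm in CC and 14.3 in Mock (RR 11.5), a ratio of 1.15 whose interval (0.905 to 1.46) includes 1, against 8.25 for the 5p arm. miR-374a and miR-550a followed, both with a higher 5p and a lower 3p arm. miR-374a-5p had 21.5 and 44.8 rpm and miR-374a-3p 6.31 and 1.88 rpm in CC and Mock. miR-550a-5p had 13.8 and 38.8 rpm and miR-550a-3p 3.06 and 1.22 rpm. In miR-615 the scarce 5p arm had 1.95 rpm in CC and 4.33 in Mock while the 3p arm was lower, a gap of 1.47. In miR-185, which represses DNMT1, the 5p arm had 149 and 242 rpm and the 3p arm 26.3 and 15.7 rpm.

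The opposite order occurred as well. miR-27b-5p had 10.1 rpm in CC and 4.89 in Mock while miR-27b-3p had 581 and 856 rpm, a gap of -1.48. For miR-205 the scarce 3p arm, with 2.60 and 4.14 rpm, did not share the lower level of the 5p arm. miR-339 and miR-130b had gaps of -1.20 and -1.19. In all, the 5p arm had the higher ratio in 61 of the 102 pairs.

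**Figure D5:**
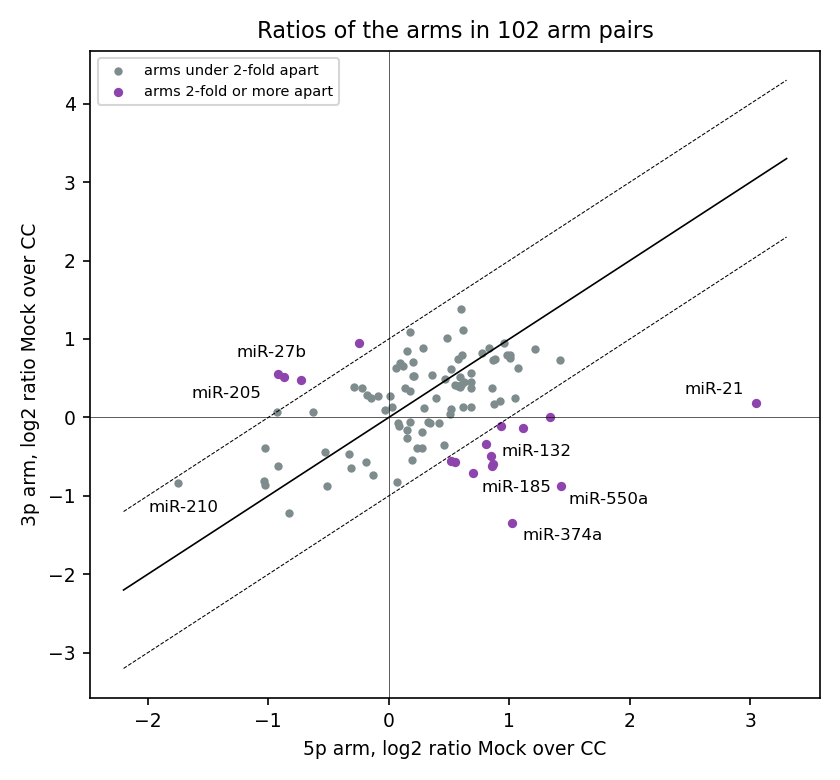
Log2 ratios of Mock over CC for the 5p arm (x axis) and the 3p arm (y axis) of 102 arm pairs, 1 point a pair, with equality as a solid line and a 2-fold gap as dashed lines. The 17 purple pairs are past 2-fold, miR-21 being furthest right with a 3p ratio near 0.

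Some listed miRNAs are encoded on the strand opposite another. The sequences show 2 such cases, each with the more abundant strand first and the seed in capitals.
miR-103a-3p: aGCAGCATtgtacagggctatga
miR-103b: tCATAGCCctgtacaatgctgct
miR-374b-5p: aTATAATAcaacctgctaagtg
miR-374c-3p: cACTTAGCaggttgtattatat
miR-103b matched the reverse complement of miR-103a-3p over 23 bases with 0 mismatches, and miR-374c-3p that of miR-374b-5p over 22. miR-103b had 21.4 rpm in CC and 8.65 in Mock (RR 3.82), 2.47-fold lower in Mock, while miR-103a-3p was higher there. miR-374c-3p had 256 reads in CC and 5 in Mock (RR 2), 50.5-fold lower in Mock (21.4 to 157), while miR-374b-5p had 45.1, 69.6 and 63.1 rpm. In both cases CC held the highest level of the scarcer strand and the lowest of the other. These pairs were chosen for their gap, and some other antisense pairs did not part. miR-3074-5p, opposite miR-24-3p, had 4.92 rpm in CC and 11.4 in Mock. miR-3529-3p, opposite miR-7-5p, had 42.6 and 50.8 rpm, and miR-3184-5p, opposite miR-423-3p, 119 and 94.7 rpm. Each was on the same side as its partner. At very low levels miR-3065-3p and miR-338-5p did part, with 0.557 and 0.0940 rpm against 0.186 and 0.658 in CC and Mock. miR-374c-3p lies under the level filter, which averages the 3 libraries, and the origin of these reads was not tested.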

How the data were processed

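Small RNA libraries of CAL-27 clones were made by adapter ligation, amplified and size-selected, per the labels' protocols. Bowtie and GRCh38 are named in the submitters' processing notes, without role. For trimming, the miRNA reference, mismatches and multiple matches, the method was not given in the sources used here. The deposited values, which the authors call TPM, behave as RPM: all were whole multiples, within 0.01 read, of 1 step per library, and 100% of values gave whole reads. Of the count test that such reads would allow, none was run, since each group has 1 library. Sequence, length and family were taken from the deposited table, and 0 other per-sample columns were present.

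Ratios were put on the log2 scale with 1 rpm added to each level, which understates scarce miRNAs, and counted where the 3 libraries averaged 10 rpm or more. Folds with an interval use the deposited values. Intervals are exact, from Poisson limits for levels and from Clopper-Pearson limits for ratios. Of 1149 sequences 1041 matched RefSeq (GRCh38.p14), which gave coordinates; host genes came from GENCODE release 29. Sequences with no more than 2 mismatches across at least 18 bases were called near-identical. The rule for named miRNAs covers those past 2-fold, the 10 most abundant, up to 6 members a list, other arms of these, the 6 scarce miRNAs each way with the largest bounds and the 4 widest arm gaps each way. The other miRNAs named were chosen after their values were seen. Members, lists, rule and tests were chosen with earlier results of these data known. Alternatives varied the pseudocount, level filter, scaling, threshold and base-composition trend. Scripts were tested on simulated data. They used scipy 1.17.1, pandas 2.3.3 and numpy 2.4.6 under Python 3.11.15, and figures matplotlib 3.10.9.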

Additional observations from a re-analysis of the deposited data

How the results depend on the processing

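No paired analysis was possible because each group has 1 library, and for the same reason no library could be left out. No miRNA past 2-fold changed direction under any alternative run. The count of 25 higher miRNAs became 13 with a pseudocount of 10 rpm, 44 with a mean of 1 rpm or more (390 tested), 46 with no filter (1045 tested), 11 with a mean of 100 rpm or more (93 tested), 10 with median-ratio scaling, 10 without the 10 most abundant miRNAs in the scaling, 7 as a share of the miRNA reads, 12 with a C trend removed, 70 at 1.5-fold and 3 at 4-fold. The count of 8 lower ones became, in the same order, 3, 13, 14, 1, 18, 19 and 31, then 6 with the C trend, 26 at 1.5-fold and 2 at 4-fold, and 4 with a GC trend removed. The cause was not tested beyond what the tested sets show by construction. The median log2 ratio of 0.28 became 0.11 with no filter, 0.45 at 100 rpm or more, -0.0117 with median-ratio scaling, -0.0579 without the 10 most abundant and -0.22 as a share. Spearman's rho of the ratio with GC content, -0.55, was -0.37 with no filter and -0.31 once the C trend, chosen after seeing the data, was removed. Hairpins with arms 2-fold apart, 17 of 102, were 10 of 64 where each arm needed 100 reads and 21 of 126 where it needed 10. With a pseudocount of 0.1 rpm they were 23 of 102, and with a GC trend removed 14 of 102. Past 2-fold under every setting at the 2-fold threshold in which they were tested were 6 of the 25 higher miRNAs (miR-21-5p, miR-103a-3p, miR-146a-5p, miR-206, miR-486-5p and miR-3182) and 2 of the 8 lower ones (miR-320b and miR-1248). Among these, miR-206 passed the main level filter only through its level in Mock. Depth limits scarce miRNAs: 4 of the higher ones were under 10 rpm in CC and 5 of the lower ones under 10 rpm in Mock.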

Other observations

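Of all 1149 miRNAs, 717 had reads in both libraries, 178 in Mock and not in CC, 150 in CC and not in Mock, and 104 in neither. Few of the miRNAs seen in 1 of the 2 libraries were above the floor: 22 of the 178 had over 3 reads, with a highest count of 34, and 17 of the 150 did, with a highest count of 18. miR-7973 had 34 reads in Mock and 0 in CC and RR, at least 11.5-fold higher in Mock against the floor of 3 reads in CC, with a counting interval that starts at 8.84. miR-1268a had 24 reads in Mock, 1 in CC and 0 in RR, a ratio of 24.3 with a lower limit of 3.96, the upper one being left wide by the single read. miR-548aq-3p had 33 reads in Mock, 6 in CC and 12 in RR, a ratio of 5.57 (2.31 to 16.3). Among miRNAs lower in Mock, miR-1291 had 0 reads in Mock, 18 in CC and 7 in RR, at least 5.92-fold lower against the floor of 3 reads in Mock, with a counting interval that starts at 4.34, miR-6746-3p had 0, 10 and 5 reads in that order, and miR-4685-3p and miR-6753-3p had 9 reads each in CC and 0 in Mock.

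Ends of the miRNA also differed in their ratios. The 103 tested miRNAs that begin with T, the base Argonaute proteins favour, had a median log2 ratio of 0.38 and included 17 of the 25 higher ones. The 51 that begin with A had a median of 0.25, the 42 with C 0.27 and the 12 with G -0.05. By the last base, the medians were 0.42 for G (52 miRNAs), 0.40 for T (64), 0.21 for A (50) and 0.15 for C (42). These groups differ in overall GC content, and the share of that in the values was not tested.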
